A study of Drosophila melanogaster with 8 samples.

Results

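The receptor tyrosine kinases Heartless (htl), Breathless (btl), Egfr and Pvr, with the secreted factors and the protease that activate them, were followed through 2 comparisons of larval heart RNA in Drosophila melanogaster. The members were 10 genes (htl, btl, Egfr, Pvr, bnl, spi, rho, Pvf1, Pvf2 and Pvf3), taken by their names in the gene and symbol columns of the spot files, whatever they measured. They were represented by 12 of the 14456 oligonucleotides with a gene on the array, since bnl and Pvf3 each had 2, and by 10 of 13302 genes. The dorsal vessel of the fly larva is a muscular tube that pumps hemolymph, divided into the heart at the rear and the aorta toward the head. On 4 arrays the heart was set against the aorta, cut apart at the valve between them and pooled from 10 individuals each, and on the other 4 arrays the entire dorsal vessel was set against whole larvae, pooled from 5 individuals each. All were of the strain labelled WT (yw; Canton S), raised at 25 °C to the third larval instar, and the labels name no transgene or treatment for any group.

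Each of these kinases sits in the cell membrane and passes a signal through Ras and the MAP kinase cascade once a secreted ligand has bound. Heartless, a fibroblast growth factor receptor, guides the spreading of the embryonic mesoderm and the choice of cardiac and muscle founder cells. Breathless, the other fibroblast growth factor receptor of the fly, directs tracheal branching toward sources of its ligand Branchless (bnl). The epidermal growth factor receptor, encoded by Egfr, is activated by Spitz (spi), which the membrane protease Rhomboid (rho) must first cut free. Pvr, related to the mammalian receptors for PDGF and VEGF, binds Pvf1, Pvf2 and Pvf3 and is known for its part in the survival and migration of blood cells.

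A spot counted as above detection when its background-subtracted signal exceeded the 95th percentile of the negative and empty spots in the same channel of the same array, a level of 0.139 to 0.819 fluorescence units (RFU). Of the gene oligonucleotides, 34.6 to 56.1% lay above it per channel. An oligonucleotide was tested where at least 2 of the 4 arrays were above detection in at least 1 of the RNAs. Ratios are on the log2 scale, heart over aorta and dorsal vessel over whole larva, with the standard error (SE) of limma's fit over n = 4 arrays; heart over aorta is the opposite sign of the deposited table. Replicates of dorsal vessel over whole larva correlated across oligonucleotides at r = 0.813 to 0.888, but those of heart over aorta only at r = -0.506 to 0.461. In heart over aorta, pairs of the same dye orientation (replicates 1 and 2, and 3 and 4) had r = 0.448 and 0.461. Pairs with the dyes swapped had only r = -0.506 to 0.167. The lowest value was that of replicates 1 and 3 (Spearman rho = -0.23), whose midgut markers had medians of 3.80 and -4.02. An offset of 1.35 RFU was added to every signal before the ratio, so ratios of dim oligonucleotides understate the difference.

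The cardiac markers Hand, of a heart transcription factor, and H15, of a T-box factor, were higher in the dorsal vessel than in whole larvae (5.56, SE 0.37, adjusted p = 0.000537, and 3.43, SE 0.14, adjusted p = 0.00013 in limma). Over all oligonucleotides tested there, 12.5% were higher in the vessel and 22.4% were lower. Of 10 cardiac marker oligonucleotides tested, 4 were higher in the vessel, 1, of svp, was lower and 5 did not pass. The summed intensity of the list on the 16-bit scale was 25560 to 34790 in the vessel and 4678 to 6903 in whole larvae. Such sums include the offset, so a gene below detection also adds to them. The tin oligonucleotide was above detection in the vessel on 4 arrays and in whole larvae on 0, and 3 of the 11 cardiac genes on the array, sli, prc and tup, were above detection on no array of either comparison.

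Of the 12 member oligonucleotides, 7 were tested in both comparisons: htl, Pvr, 1 of the 2 for bnl, spi, rho, Pvf1 and Pvf2. The other 5, for btl, Egfr, Pvf3 (both) and the remaining bnl oligonucleotide, were too dim. Between dorsal vessel and whole larva 3 of the 7 passed at an adjusted p below 0.05, where 35.0% of all 7749 oligonucleotides passed. The receptors htl and Pvr were higher in the vessel, where 12.5% of all were, and rho was higher in whole larvae, where 22.4% of all were. Between heart and aorta 0 of the 7 passed in limma and 1, spi, had an unadjusted p below 0.05, where 0.0941% of all 7439 oligonucleotides passed and 1627 had an unadjusted p below 0.05. The median of the 7 members was 0.21 for the vessel over the larva, against -0.05 over all oligonucleotides, and 0.03 for heart over aorta, against -0.0044.

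**Figure D1:**
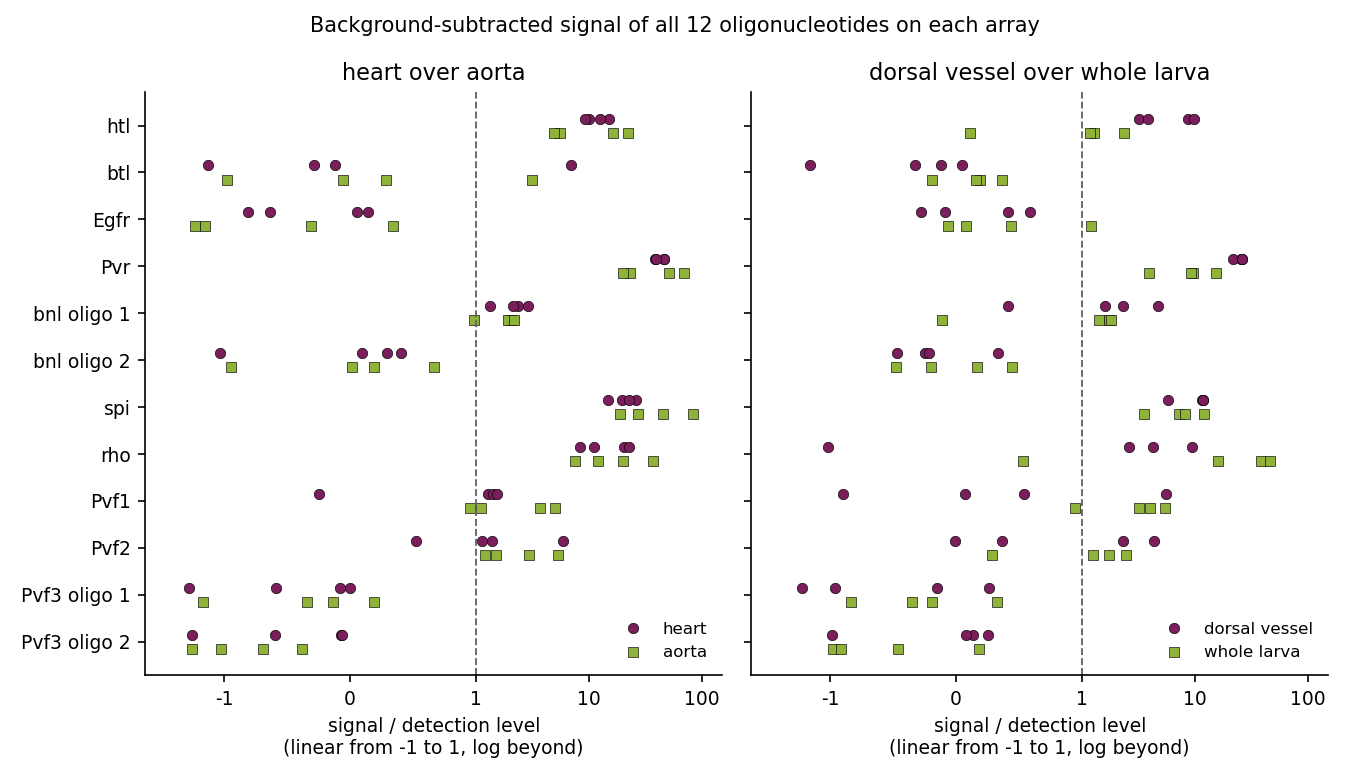
Background-subtracted signal divided by the detection level of the same channel and array (x axis, no unit, linear from -1 to 1 and logarithmic beyond) for each of the 12 member oligonucleotides (y axis), with 1 point per array and RNA; the dashed line marks the detection level. Pvr, spi and htl lay to its right in heart, aorta and dorsal vessel on all arrays, and both Pvf3 oligonucleotides and the second bnl oligonucleotide lay to its left on all arrays.

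Among the receptors, htl was above detection in the dorsal vessel on 4 of 4 arrays and in whole larvae on 3. Its signal was 0.756 to 4.44 RFU in the vessel and 0.0885 to 0.918 RFU in whole larvae. The log2 ratios of replicates 1 to 4 were 0.60, 0.85, 0.81 and 0.59. All 4 arrays were above 0, and the normalised values on the log2 scale were 7.41 to 8.11 in the vessel and 6.82 to 7.26 in the larva. The receptor was 1.64-fold higher in the vessel (log2 ratio 0.71, SE 0.12, adjusted p = 0.00927 in limma). Every whole larva signal lay below the added offset of 1.35 RFU, so this fold understates the difference. It cannot be set against the fold of a brighter oligonucleotide such as Pvr. The mean log2 ratio was 0.70 with the vessel in Cy5 and 0.73 with it in Cy3. The call was lost without replicate 2 (0.65, adjusted p = 0.0593) and with median centring in place of loess (0.72, adjusted p = 0.0523), and the ratio was 1.27 with the authors' deposited log2 ratios. In bulk RNA, more cells of a type in the sample and more RNA per cell cannot be told apart.

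Markers of pericardial cells and nephrocytes, the filtering cells that lie along the dorsal vessel, moved with the vessel as htl and Pvr did. Of 7 such oligonucleotides tested between vessel and larva, 6 were higher in the vessel, 0 were lower and 1 did not pass. Their median was 0.98. Among all oligonucleotides of that comparison, 12.5% were higher in the vessel and 22.4% were lower. Cubn, of an endocytic receptor of nephrocytes, was 12.5-fold higher (3.64, SE 0.16, adjusted p = 0.000138), and odd, of a transcription factor, had 0.98 (adjusted p = 0.00665). The summed intensity of the list was 3359 to 4217 in the vessel and 947 to 1244 in whole larvae. In whole larvae 6 of the 9 genes were above detection on no array, so that sum lies near the floor of the scale. The markers kirre and eve were above detection in neither RNA on any array of that comparison. Between heart and aorta the 10 tested had a median of 0.12. Their part in the htl and Pvr differences was not tested.

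Between heart and aorta htl was above detection on 4 of 4 arrays in each RNA, at 3.43 to 4.68 RFU in heart and 1.68 to 3.82 RFU in aorta. The log2 ratios were 0.21, 0.61, 0.08 and -0.26. Replicates 1 to 3 lay above 0 and replicate 4 below, and the ranges of the 2 RNAs overlapped. The ratio was 0.16 (SE 0.12, 95% confidence interval -0.18 to 0.49, adjusted p = 0.526). With heart in Cy5 the mean was 0.41 and with heart in Cy3 it was -0.09.

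Pvr was above detection in all 4 RNAs on every array. The vessel signal was 5.06 to 19.3 RFU and the whole larva signal 3.22 to 5.77 RFU. The log2 ratios of vessel over larva were 1.46, 0.95, 0.81 and 0.48. After normalisation each array had the vessel higher, with values of 8.67 to 9.77 in the vessel and 8.05 to 8.32 in the larva. Before it, replicate 4 read 5.06 RFU in the vessel and 5.77 RFU in the larva. Pvr was 1.90-fold higher in the vessel (0.92, SE 0.14, adjusted p = 0.00740 in limma). The arrays with the vessel in Cy3, replicates 1 and 2, were the higher, those with it in Cy5 had a mean of 0.65, and the call stood without any 1 of the replicates (0.80 to 1.05, adjusted p = 0.0149 to 0.0292).

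Blood cell markers were also measured in these samples, since larval hemocytes and the lymph gland express Pvr. Over all oligonucleotides tested between vessel and larva, 12.5% were higher in the vessel and 22.4% were lower. Of 12 hemocyte and lymph gland oligonucleotides tested there, 4 were higher in the vessel, 1 was lower and 7 did not pass, with a median of 0.43. Those higher were He (2.01, adjusted p = 0.00587), crq, of a receptor for dying cells (0.83, adjusted p = 0.00509), srp, of a GATA factor of blood cells (0.71, adjusted p = 0.0110), and dome (0.61, adjusted p = 0.0393), and the prophenoloxidase gene PPO2 was lower (-0.61, adjusted p = 0.0242). The summed intensity of the list overlapped, at 15320 to 20130 in the vessel and 14120 to 25940 in the larva, and lz, of a crystal cell factor, was above detection on 0 arrays. Their part in the Pvr difference was not tested.

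In heart and aorta the Pvr signal was 14.0 to 15.6 RFU and 7.02 to 11.9 RFU. Log2 ratios of heart over aorta were 0.33, 0.67, 0.36 and -0.05. Heart was higher on 3 arrays and close to the aorta on replicate 4, and the normalised ranges overlapped. The ratio was 0.33 (SE 0.12, 95% confidence interval -0.01 to 0.66, adjusted p = 0.237), with means of 0.50 for heart in Cy5 and 0.15 for heart in Cy3. Beside it, 11 of the 12 blood cell oligonucleotides tested had positive ratios, where 49.1% of all 7439 oligonucleotides did. The replicate medians of the 12 were 0.80, 0.91, 1.77 and 0.51. The summed intensity of the list was 23290 to 44000 in heart against 9138 to 13090 in aorta. Of these 12, PPO1 passed (1.79, adjusted p = 0.0367). It is 1 of only 7 calls in heart over aorta, and that count fell to 0 without any 1 replicate. The share of blood cells in the Pvr value was not tested.

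The btl oligonucleotide was above detection on 1 of the 8 arrays, replicate 4 of heart over aorta, where it read 2.58 RFU in heart and 0.737 RFU in aorta. On the other 3 arrays of that comparison its signal was -0.435 to -0.0433 RFU in heart and -0.136 to 0.0866 RFU in aorta. In the dorsal vessel and whole larvae it was -0.293 to 0.156 RFU, below detection on all 4 arrays in both RNAs. No ratio of btl was tested. Other tracheal genes were measurable in whole larvae. Of 5 tracheal marker oligonucleotides tested, 4 were lower in the vessel, where 22.4% of all oligonucleotides were, and 1 did not pass. The vvl oligonucleotide, of a tracheal POU factor, was higher in whole larvae (adjusted p = 0.000713). As the vessel was below detection on all arrays, the 4.37-fold difference is an approximate bound, set by the dimmest signals above detection. An oligonucleotide of pio, of a tracheal matrix protein, had a log2 ratio of -2.26 (adjusted p = 0.000373). The tracheal factor trh was above detection on 0 arrays, and btl itself belongs to this marker list.

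Egfr had a single oligonucleotide, and its reading depended on where the spot was taken to lie. It belongs to a block of 656 spots that was displaced on 3 arrays. The block lay 1 column off on replicates 1 and 2 of vessel over larva. On replicate 3 of heart over aorta it lay 1 row and 1 column off. On these 3 arrays the total intensities of the block correlated with the other arrays at r = -0.03 to 0.15 as listed. With the shift undone they correlated at r = 0.924 to 0.976, while the other 189 of 192 block readings correlated at 0.806 or more. With the shift undone, Egfr was above detection in heart, aorta and dorsal vessel on 0 of 4 arrays each. In whole larvae it was above detection on 1, at 0.978 RFU in replicate 1. All other signals of this oligonucleotide lay between -0.348 and 0.447 RFU, so Egfr was not tested.

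At the positions listed in the files Egfr would have been called lower in the vessel (-0.55, SE 0.15, adjusted p = 0.0451). The log2 ratios of replicates 1 to 4 were then -0.86, -1.58, 0.07 and 0.18, with both negative values from the arrays whose block was displaced. Read 1 spot over, the first 2 became -0.10 and -0.21. By the match to the other arrays, the listed position held a neighbouring spot there. Egfr is therefore given as below detection, which for a dim oligonucleotide does not show that the gene is silent.

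**Figure D2:**
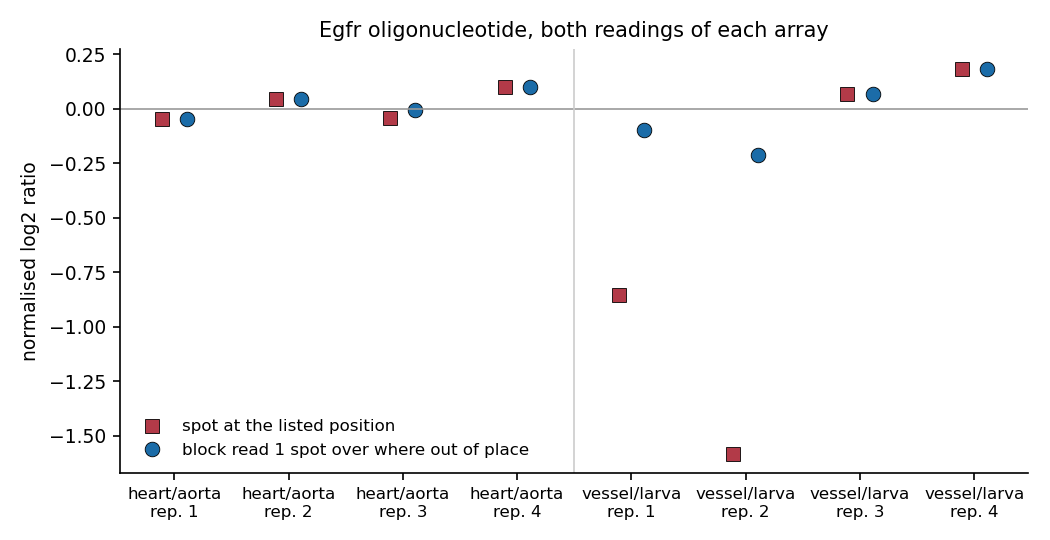
Normalised log2 ratio of the Egfr oligonucleotide (y axis) on each of the 8 arrays (x axis), heart over aorta on the left and dorsal vessel over whole larva on the right; squares use the position listed in the files and circles the position found by matching the block to the other arrays. The 2 readings part on replicates 1 and 2 of vessel over larva, at -0.86 and -1.58 as listed against -0.10 and -0.21 as matched.

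Among the ligands, spi was above detection in all 4 RNAs on every array, with signals of 5.49 to 9.37 RFU in heart and 6.75 to 11.4 RFU in aorta. The log2 ratios of heart over aorta were -0.31, -0.10, -0.60 and -0.91. After normalisation all 4 arrays had more spi in aorta, though the normalised ranges overlapped (8.18 to 8.56 in heart, 8.42 to 9.09 in aorta). Before it, replicate 1 read 9.37 RFU in heart and 8.335 RFU in aorta. The ratio was -0.48, or 1.40-fold toward the aorta (SE 0.09, 95% confidence interval -0.75 to -0.21), and spi did not pass after adjustment (adjusted p = 0.109 in limma, and 0.056 to 0.722 over 20 alternatives). With heart in Cy5 the mean was -0.21 and with heart in Cy3 it was -0.75. Median centring gave -0.25 (adjusted p = 0.266).

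In the other comparison spi read 2.28 to 6.02 RFU in the vessel and 2.83 to 4.57 RFU in whole larvae. The log2 ratios were 0.10, 0.53, 0.14 and 0.06. Replicate 2 stood above the other 3 arrays, and all 4 were above 0. The ratio was 0.21 (SE 0.12, 95% confidence interval -0.11 to 0.52, adjusted p = 0.236), and without replicate 2 it was 0.10.

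The protease gene rho was lower in the vessel than in whole larvae, the opposite direction to htl and Pvr. In whole larvae it read 12.9 to 17.4 RFU on replicates 1 to 3, and in the vessel 1.74 to 4.76 RFU. On replicate 4 it was below detection in both RNAs, at 0.202 RFU in the larva and -0.204 RFU in the vessel, and the spot was not marked as bad there. The log2 ratios were -1.71, -1.36, -2.32 and -0.13. The 3 arrays with a signal lay far below 0 and the fourth array close to 0. Over all 4 arrays rho was 2.60-fold higher in whole larvae (-1.38, SE 0.36, 95% confidence interval -2.28 to -0.47, adjusted p = 0.0362 in limma).

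Without replicate 4 the rho ratio was -1.93 (adjusted p = 0.00425) and without replicate 3 it was -0.83 (adjusted p = 0.0226). The call was lost without replicate 1 (-1.29, adjusted p = 0.100) or replicate 2 (-1.47, adjusted p = 0.0787), and with no detection filter (adjusted p = 0.108).

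Markers of tissues outside the heart were lower in the vessel in the same comparison, where 22.4% of all oligonucleotides were lower. All 5 salivary gland oligonucleotides were lower, with a median of -5.35 and a summed intensity of 2552 to 8535 in the vessel against 162300 to 236700 in whole larvae. All 6 of the fat body were lower, with a median of -4.10 and a summed intensity of 2829 to 3917 against 63270 to 115100. Of 4 midgut oligonucleotides tested 3 were lower, with a median of -3.05 and sums of 1276 to 3001 against 32690 to 50590. Of 7 for larval body muscle 4 were lower, with a median of -1.004 and sums of 18000 to 43440 against 79110 to 108000. The trachea, described with btl, had a median of -1.80 and sums of 918 to 978 against 2024 to 2477. Smaller shifts came from the nervous system, with 4 of 5 lower, a median of -0.72 and sums of 630 to 657 against 898 to 1210, and from the imaginal discs, with 2 of 4 lower, a median of -0.40 and sums of 582 to 644 against 816 to 867. Of 2 ring gland oligonucleotides 1 was lower, with a median of -1.03 and sums of 568 to 619 against 911 to 990. In the vessel 5 of 7 tracheal genes were above detection on no array, and so were 4 of 5 of the nervous system. The same held for 4 of 5 disc genes and 3 of 5 ring gland genes. These vessel sums lie near the floor of the scale, offset included, and give no fold difference. No list of these outside tissues had an oligonucleotide called higher in the vessel. Their part in the rho difference was not tested.

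Between heart and aorta rho was above detection in both RNAs on every array, with 3.12 to 7.61 RFU in heart and 2.75 to 5.11 RFU in aorta. The log2 ratios were 0.26, 0.18, 0.20 and -0.50. Replicates 1 to 3 lay close together and replicate 4 lay on the other side of 0. The ratio was 0.03 (SE 0.14, 95% confidence interval -0.38 to 0.45, adjusted p = 0.941), and leaving out replicate 3 turned its sign (-0.14), while without replicate 4 it was 0.21.

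**Figure D3:**
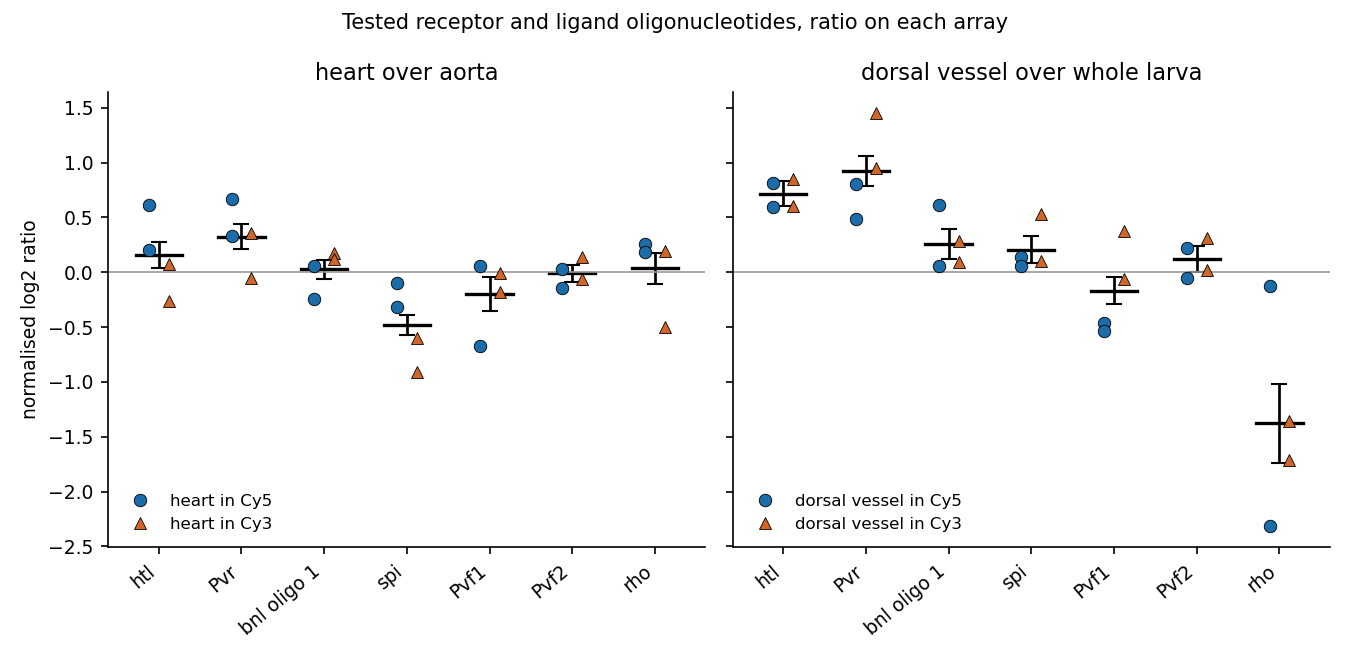
Normalised log2 ratios (y axis) of the 7 tested member oligonucleotides (x axis), heart over aorta on the left and dorsal vessel over whole larva on the right; each point is 1 array, circles with the first-named RNA in Cy5 and triangles with it in Cy3, and bars give the fitted ratio and its SE over 4 arrays. In vessel over larva all points of htl and Pvr lie above 0 and all points of rho below, while in heart over aorta only spi has all 4 points on 1 side.

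The Breathless ligand gene bnl was measured by 1 of its 2 oligonucleotides, matched to the transcript CG4608-RA in the files. It was above detection on 4 of 4 arrays in heart, 3 in aorta, 3 in the vessel and 3 in whole larvae, at no more than 1.17 RFU. The log2 ratios of vessel over larva were 0.09, 0.28, 0.05 and 0.62, all above 0 with overlapping ranges (0.26, SE 0.14, 95% confidence interval -0.09 to 0.61, adjusted p = 0.190). Heart over aorta gave -0.25, 0.05, 0.18 and 0.12, on both sides of 0 (0.03, SE 0.09, 95% confidence interval -0.22 to 0.27, adjusted p = 0.923). The second oligonucleotide, listed only under an earlier transcript, CG4608-RB, was below detection on all 8 arrays in both channels (-0.389 to 0.167 RFU). The files thus give bnl a measurable but dim signal by 1 oligonucleotide and none by the other.

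Of the Pvr ligands, Pvf1, which also guides migrating cells of the ovary, was above detection on 3 of 4 arrays in heart, aorta and whole larvae and on 1 in the vessel. Its ratios of vessel over larva were -0.06, 0.38, -0.46 and -0.54, with replicate 2 apart on the positive side. They gave -0.17 (SE 0.12, 95% confidence interval -0.48 to 0.14, adjusted p = 0.312), with a mean of 0.16 for the vessel in Cy3 and -0.50 for the vessel in Cy5. For heart over aorta they were -0.67, 0.06, -0.01 and -0.18, with replicate 1 lowest (-0.20, SE 0.15, 95% confidence interval -0.63 to 0.24, adjusted p = 0.544).

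Pvf2 was above detection on 3 arrays in heart, 4 in aorta, 2 in the vessel and 3 in whole larvae. Vessel over larva gave 0.02, 0.31, 0.22 and -0.06, with 3 arrays above 0 (0.12, SE 0.12, 95% confidence interval -0.18 to 0.43, adjusted p = 0.443). Heart over aorta gave -0.15, 0.03, -0.06 and 0.14, evenly placed around 0 (-0.01, SE 0.08, 95% confidence interval -0.24 to 0.22, adjusted p = 0.970). Among the arrays of heart over aorta, replicate 4 held the highest Pvf2 signal of each RNA, 2.22 RFU in heart and 1.25 RFU in aorta, and it is also the array on which btl was above detection.

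Neither Pvf3 oligonucleotide rose above detection in any RNA, with signals of -0.805 to 0.268 RFU over the 8 arrays. In the current RefSeq annotation Pvf3 lies next to Pvf2 on chromosome arm 2L, with no other protein-coding gene between them. A further oligonucleotide, listed in the files under CG13783, is assigned to Pvf3 by that annotation. It too was below detection on all arrays, so all 3 oligonucleotides that may read Pvf3 gave no measurable signal, and Pvf3 has no ratio.

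Beyond the members, 60 other genes of these pathways were on the array with 67 oligonucleotides. Between vessel and larva 37 were tested, of 36 genes: 4 were higher in the vessel, 5 were lower and 28 did not pass, a share of 24.3% called beside the 35.0% over all oligonucleotides. Their median was 0.02. Between heart and aorta 0 of 33 passed in limma, 12 had an unadjusted p below 0.05 and the median was 0.10. Over all 7439 oligonucleotides of that comparison 1627 had an unadjusted p below 0.05 and the median was -0.0044. For the branch counts below, 12.5% of all oligonucleotides were higher in the vessel and 22.4% were higher in whole larvae.

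The fibroblast growth factor branch around htl and btl had 4 oligonucleotides tested, and 0 passed in either comparison. The Heartless ligand pyr was above detection on all arrays (0.28, SE 0.16, adjusted p = 0.214 for vessel over larva, and 0.33, SE 0.07, adjusted p = 0.127 for heart over aorta), while the other ligand of that receptor, ths, was not tested in either. The adaptor stumps, which links both receptors to Ras signalling, had 0.15 (adjusted p = 0.317) and -0.27 (adjusted p = 0.230). The feedback inhibitor sty had ratios of 0.06 and 0.13 from its 2 oligonucleotides in the vessel (adjusted p = 0.792 and 0.586).

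In the epidermal growth factor branch around Egfr, spi and rho, 6 oligonucleotides were tested in the vessel: 1 was higher, 1 was lower and 4 did not pass. The ligand gene grk, known for patterning the egg chamber, was 2.17-fold higher in the vessel, with ratios of 0.98, 1.43, 0.93 and 1.14 (1.12, SE 0.13, adjusted p = 0.00303). A rhomboid relative, rho-4, was 1.57-fold higher in whole larvae, with ratios of -0.95, -0.44, -0.71 and -0.50 (-0.65, SE 0.13, adjusted p = 0.0190). All 4 arrays agreed in sign for both genes. Of 5 tested between heart and aorta 0 passed, among them rho-4 (-0.46, adjusted p = 0.0946), grk (0.44, adjusted p = 0.215) and the ligand gene vn (0.17, adjusted p = 0.367).

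Of 11 oligonucleotides of the Ras and MAP kinase cascade tested in the vessel, 2 were higher, 0 were lower and 9 did not pass. These were the adaptor gene Shc, at 0.63, 0.76, 0.52 and 0.58 (0.62, SE 0.11, adjusted p = 0.0107), and Mkp3, of a phosphatase that switches the MAP kinase off, at 0.58, 1.55, 0.66 and 0.61 (0.85, SE 0.18, adjusted p = 0.0217). Replicate 2 stood apart for Mkp3. Ras85D, the Ras gene of the cascade, had 0.38 (adjusted p = 0.0888). Of 12 tested between heart and aorta 0 passed, and Cbl, of a ubiquitin ligase that removes active receptors, had the smallest adjusted p (-0.33, adjusted p = 0.136).

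Of 4 adaptors that act below Pvr, 0 passed in either comparison, with Ced-12 at 0.42 in the vessel (adjusted p = 0.0557) and Crk at 0.46 in heart (adjusted p = 0.0946). The repressor gene cic, a target of the cascade in the nucleus, was the only nuclear effector tested in the vessel (-0.30, adjusted p = 0.117). It had -0.35 (adjusted p = 0.160) between heart and aorta.

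Of 11 oligonucleotides for other receptor tyrosine kinases and their ligands tested in the vessel, 1 was higher, 4 were lower and 6 did not pass. Tie, a receptor related to those of the vertebrate endothelium, was above detection in whole larvae on 4 arrays and in the vessel on 1, with ratios of -1.78, -1.90, -1.76 and -0.96 (-1.60, SE 0.16, adjusted p = 0.00198). The genes of the receptors Ror and drl and of torso-like (tsl) were below detection in the vessel on all 4 arrays and above it in whole larvae on all 4. They were higher in whole larvae, by approximate bounds of 1.87-fold, 1.78-fold and 1.63-fold (adjusted p = 0.0128, 0.0107 and 0.00922). The Torso ligand gene trk was below detection in whole larvae on all arrays and higher in the vessel, by an approximate bound of 1.78-fold (adjusted p = 0.00613). Such bounds compare the brighter RNA with the dimmest signals above detection, or with the dim RNA's own value where that was higher. They carry no error and are not strict lower limits.

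**Figure D4:**
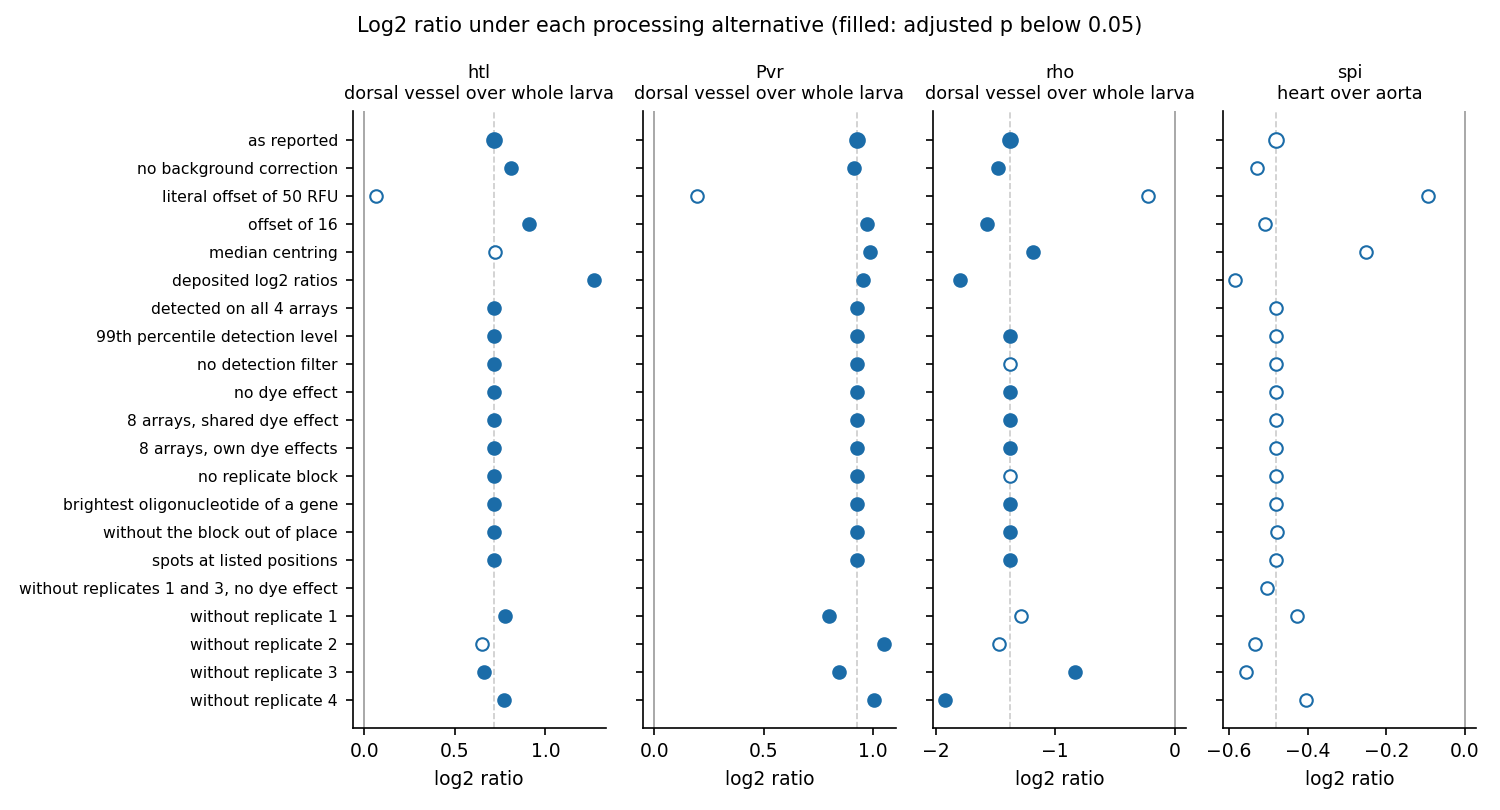
Fitted log2 ratio (x axis) of htl, Pvr and rho for dorsal vessel over whole larva and of spi for heart over aorta, as reported and under each alternative of processing or arrays (y axis); filled points have an adjusted p below 0.05. Pvr loses its call under 1 alternative, the offset of 50 RFU, htl under 3 and rho under 5, and spi has none under any.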

How the data were processed

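Signals were measured on 8 arrays with 2 dyes. Per the labels, each pool gave about 100 ng of RNA, which went through 2 rounds of amplification primed from the poly(A) tail. Spot intensities (RFU) are foreground and local background of both dyes, per the file headers. The deposited log2 ratios were normalised by the authors; the submitters' processing notes list limma with no version. They correlated with the raw ratios at 0.923 to 0.989 in size.

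Here intensities were scaled by 36.9 to a 16-bit range, corrected by normexp (offset 50), normalised by loess (span 0.3, 4 iterations; controls and marked spots at weight 0) and averaged over spots of an oligonucleotide. A block found out of place was read 1 column over, or 1 row and 1 column over on replicate 3 of heart over aorta. That choice was made after its values were seen. Each comparison was fitted in limma 3.58.1 (R 4.3.3) on its 4 arrays with orientation and a dye effect of each oligonucleotide. Residual degrees of freedom were 2 and, with the prior, 3.72 (heart over aorta) and 5.24 (vessel over larva). Benjamini-Hochberg adjustment ran over every oligonucleotide tested, with a threshold of 0.05. The fit and adjustment were also run on simulated log2 ratios with independent normal errors. The outcome is not given here, so it bears on no result above. Background correction, loess, the detection filter and the block reading were not part of that simulation. The small number of arrays limits the precision.

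The ratio within an array pairs the RNAs of a replicate, since same-numbered RNAs shared an array. Replicates are biological per the series' design text. Members and lists were chosen with earlier results of these data known. Named beside all members were up to 4 oligonucleotides per pathway list by smallest adjusted p, and marker genes of the heart, pericardial cells, blood and trachea; other marker lists are given as counts. Ror lies outside that rule and was named after its values were seen, to complete a count of 4. Of 14456 oligonucleotides, 12644 were named by locus tag and 1139 by an older identifier through RefSeq (Release 6), and 673 kept the name in the files, which cite annotation releases 4.1 and 4.2; no coordinates are given for that reason. Alternatives were background, offset, normalisation, detection filter, dye effect, pairing, oligonucleotide choice, block and arrays.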

Additional observations from a re-analysis of the deposited data

Results flagged for a closer look

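On 2 of the 14 sets of 4 member ratios 1 array stood apart from the other 3 by Dixon's test, where chance gives about 1 in 20. For spi in vessel over larva, replicate 2 was at 0.53 and the others at 0.06 to 0.14. For rho in heart over aorta, replicate 4 was at -0.50 and the others at 0.18 to 0.26.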

How the results depend on the processing

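Over 267 alternatives of the 14 member ratios, 246 kept the direction and the side of the threshold, 9 lost a call and 12 changed sign, all 12 in heart over aorta and none of them called. Oligonucleotides called between heart and aorta, 7 as reported, were 0 with no background correction, median centring, the deposited ratios, without replicates 1 and 3 (added after the data were seen) or without any 1 replicate, 26 when detected on all 4 arrays, 3 with no detection filter, and 145 or 411 with all 8 arrays and a shared or own dye effect (106 and 207 of these higher in heart). With no replicate block, the unpaired fit, they were 157, with 1 of the pathway genes; unpaired, rho lost its call in vessel over larva (adjusted p = 0.140), and the members called there were 2. Between vessel and larva, 2711 became 1363 to 2428 without 1 replicate (1363 without replicate 2, 1603 without replicate 4). They became 1414 (766 higher in the vessel, 54.2% against 35.9% as reported) with an offset of 50 RFU. The median signal of each channel (0.0155 to 0.590 RFU) lay below this offset and also below the 1.35 RFU of the reported fit. With the offset of 50 RFU the members called were 0 (htl 0.06, adjusted p = 0.0675, Pvr 0.19, adjusted p = 0.0586, and rho -0.22, adjusted p = 0.140). Pathway oligonucleotides called were then 4 in place of 9. Without 1 replicate, members called were 1 to 3, with 1 without replicate 2. For heart over aorta, Pvf2 was 0.051 with no background correction, 0.0005 with the offset of 50 RFU, 0.053 with median centring, 0.051 with the deposited ratios, 0.083 without replicates 1 and 3 and -0.062 to 0.040 without 1 replicate. The rho ratio was -0.0093 with no background correction, -0.020 with the deposited ratios, -0.16 without replicates 1 and 3 and -0.14 to 0.21 without 1 replicate, and bnl was -0.049 to 0.10 without 1 replicate. Median centring moved the median of all heart over aorta ratios to 0.11. The cause of these changes was not tested. With the displaced block left out, Egfr in vessel over larva kept only replicates 3 and 4, of 1 dye orientation. It was below detection on both and was not tested. In that comparison rho was not tested where detection on all 4 arrays was required. Dim signals limit bnl, Pvf1 and Pvf2, and no ratio can be given for btl, Egfr and Pvf3.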

Other observations

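As a description, each tested member was set against 6575 oligonucleotides over the 8 log2 ratios (4 arrays of each comparison, which share dyes and, within a comparison, tissues, so that part of each r comes from the difference between the comparisons). Such an r compares the rise and fall over the arrays and not the level, so neighbours can differ in direction. The genes most like htl were CG7115 (r = 0.974), spi (r = 0.964) and AstA-R2, of an allatostatin receptor (r = 0.961). Their heart over aorta means were 0.16, -0.48 and 0.16, against 0.16 for htl. Closest to Pvr were Mec2 (r = 0.981), how, of an RNA-binding protein of muscle and tendon (r = 0.950), and the ion transport peptide gene ITP (r = 0.948). Their vessel over larva means were 0.46, 0.02 and 2.19, against 0.92 for Pvr. Closest to rho were ken (r = 0.964), shf (r = 0.957) and Drsl5 (r = 0.954). Their vessel over larva means were -0.96, 0.47 and -0.94, against -1.38 for rho, so shf went the opposite way. The ratio of spi tracked Nepl16 (r = 0.979), Plp (r = 0.973) and Hmgs (r = 0.968), and that of bnl tracked Ntf-2 (r = 0.987), CG17726 (r = 0.982) and RpL32 (r = 0.978). The neighbours of Pvf1 were pyd (r = 0.969), cora (r = 0.951) and pcx (r = 0.940). Their vessel over larva means were 0.45, 0.14 and 0.10, against -0.17 for Pvf1. Those of Pvf2 were Hyccin (r = 0.922), Dsor1 (r = 0.911) and CG11760 (r = 0.906). Of these neighbours Dsor1, the MAP kinase kinase of the cascade, and spi belong to the pathways described.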
